A study of Mus musculus with 6 samples.

Results

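Gene deserts are long stretches of a chromosome without protein-coding genes. Here they held 2352 peaks of the histone mark H3K9me2 that were listed in muscle lacking PHF2 and in none of the 5 other peak lists of the study. The peaks were chosen on chromosomes 1 to 19. Each was in the H3K9me2 list of the knockout, overlapped by not 1 bp any peak of control H3K9me2, control H3K4me3 or the 3 input libraries, and lay 200 kb or more from every RefSeq protein-coding gene of mm10. They are 2352 of the 12508 H3K9me2 peaks on these chromosomes in the knockout, and of 47128 peaks in all 6 lists. Presence in the knockout and absence from the control chose them, so the genotype difference at these sites is a description and no test was made of it. Of the 12508 peaks, 89% had no overlapping control H3K9me2 peak, and 66.4% (8310) had no peak of any other list. In deserts 87.6% of the 3117 peaks had no control H3K9me2 peak, and outside them 89.5% of 9391; nothing is read from these shares, since the rule used that contrast. The remaining 5958 of those 8310 lay closer to genes and are used for comparison.

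The material was gastrocnemius, a calf muscle, from 4-week-old male C57BL/6 mice, profiled by CUT&RUN, in which a nuclease tethered to an antibody cuts out the DNA around a marked nucleosome. Control animals (Ctrl) were Phf2 flox/flox;Acta1 Cre-, and knockout animals (CKO) were Phf2 flox/flox;Acta1 Cre+, so both carried floxed Phf2 alleles. Acta1 encodes skeletal muscle actin, and Cre driven by its promoter acts in muscle fibres, whereas whole muscle also holds vessel, connective tissue, nerve and immune cells that keep the gene. The peak lists do not tell these cells apart. There was 1 library for each of H3K9me2 in Ctrl, H3K9me2 in CKO, H3K4me3 in Ctrl and input in CKO, and 2 for input in Ctrl. No genotype difference in H3K9me2 therefore has a replicate check. The labels do not say whether animals were pooled. The title of the H3K4me3 library says wild type, whereas the other control libraries are titled Phf2 Ctrl. The H3K4me3 library is counted as Ctrl here.

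H3K9me2 is a repressive mark laid down by methyltransferases such as G9a and GLP and read by chromodomain proteins. It often covers wide, gene-poor domains, many of them at the nuclear lamina, where neighbouring genes are silent or used in other tissues. PHF2 belongs to the JmjC family and has been reported to remove this mark, and its PHD finger binds H3K4me3, the mark of active promoters.

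Genome-wide background coverage, read from the peak values as a measure of depth, was 0.544 fragments per position in CKO H3K9me2 and 0.391 in Ctrl H3K9me2, a ratio of 1.39. It ranged from 0.292 to 0.482 in the other 4 lists. The tissue label was checked with H3K4me3 in Ctrl within 2 kb of gene ends: 12 of 15 skeletal muscle genes had a peak, against 2 of 8 liver genes (Apoa1 and Apoa2) and 2 of 8 neuronal genes (Nefl and Stmn2). Acta1, Ckm and Ttn were the muscle genes without a peak.

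Although no coding gene was near, 7 of the desert peaks touched the promoter window of a long non-coding RNA gene. RefSeq promoter windows, which run from 250 bases before to 50 after a transcription start, were matched by position (GRCm38.p6, the assembly behind mm10). Deserts held 1024 such windows, and 10 of them, from 8 genes, were touched by a desert peak (0.977%). In deserts, 11 windows lay under any CKO H3K9me2 peak, 1 under a Ctrl H3K9me2 peak and 5 under a CKO input peak. The windows under the 7 peaks are printed 5′ to 3′ along the gene, 1 for each peak, because these desert peaks touch annotated promoter windows. Capitals show the bases inside the peak. At 4 of the 7 the peak covered a start. At Gm32678, 4930559C10Rik and 9630002D21Rik it ended upstream of the start, at bases 41, 165 and 206 of the window.
C330004P14Rik, chr10:15791527-15791826, plus strand: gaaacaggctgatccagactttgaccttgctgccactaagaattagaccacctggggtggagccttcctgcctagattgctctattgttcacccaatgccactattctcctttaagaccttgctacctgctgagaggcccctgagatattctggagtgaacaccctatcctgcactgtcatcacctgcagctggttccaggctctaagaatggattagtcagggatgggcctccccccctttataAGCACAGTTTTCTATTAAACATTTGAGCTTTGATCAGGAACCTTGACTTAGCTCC
Gm32678, chr8:29614255-29614554, minus strand: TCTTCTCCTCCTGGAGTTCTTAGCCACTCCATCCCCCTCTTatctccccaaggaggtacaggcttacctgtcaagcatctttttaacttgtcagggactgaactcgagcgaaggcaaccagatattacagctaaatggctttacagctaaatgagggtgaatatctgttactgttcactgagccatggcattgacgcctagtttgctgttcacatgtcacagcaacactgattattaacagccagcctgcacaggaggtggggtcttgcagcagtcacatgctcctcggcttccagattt
Gm36367, chr9:113295437-113295736, plus strand: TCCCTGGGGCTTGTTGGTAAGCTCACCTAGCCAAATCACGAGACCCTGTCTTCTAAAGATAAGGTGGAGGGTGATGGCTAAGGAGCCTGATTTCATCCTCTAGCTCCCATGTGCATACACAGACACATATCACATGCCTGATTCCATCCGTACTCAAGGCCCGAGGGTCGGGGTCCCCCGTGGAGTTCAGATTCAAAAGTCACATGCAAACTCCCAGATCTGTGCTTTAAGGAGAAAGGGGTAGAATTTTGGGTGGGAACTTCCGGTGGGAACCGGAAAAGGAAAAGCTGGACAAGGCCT
Gm31307, chr12:68650584-68650883, plus strand: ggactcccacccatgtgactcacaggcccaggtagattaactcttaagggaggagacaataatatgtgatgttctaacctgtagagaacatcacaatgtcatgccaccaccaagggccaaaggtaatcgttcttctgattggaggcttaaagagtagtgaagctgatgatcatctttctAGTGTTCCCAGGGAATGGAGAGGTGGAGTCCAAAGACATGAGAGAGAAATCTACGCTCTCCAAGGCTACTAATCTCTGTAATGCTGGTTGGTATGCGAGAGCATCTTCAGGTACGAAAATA
9630002D21Rik, chr12:71613364-71613663, plus strand: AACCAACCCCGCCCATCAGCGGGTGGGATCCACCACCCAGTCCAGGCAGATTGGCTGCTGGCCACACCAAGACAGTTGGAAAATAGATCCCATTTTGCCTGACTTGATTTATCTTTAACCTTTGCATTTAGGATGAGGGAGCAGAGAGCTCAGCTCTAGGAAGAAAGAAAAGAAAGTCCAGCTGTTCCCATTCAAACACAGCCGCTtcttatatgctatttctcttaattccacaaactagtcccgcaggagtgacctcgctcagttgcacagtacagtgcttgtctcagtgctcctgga
4930559C10Rik, chr12:93444774-93445073, minus strand: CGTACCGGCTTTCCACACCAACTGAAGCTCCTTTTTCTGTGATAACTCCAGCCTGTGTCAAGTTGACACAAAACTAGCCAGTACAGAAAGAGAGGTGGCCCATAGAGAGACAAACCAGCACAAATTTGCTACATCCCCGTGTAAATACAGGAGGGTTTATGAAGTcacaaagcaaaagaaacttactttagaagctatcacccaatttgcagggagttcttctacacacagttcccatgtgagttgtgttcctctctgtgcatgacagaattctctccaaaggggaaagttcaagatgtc
1700022A22Rik, chr15:46324335-46324634, plus strand: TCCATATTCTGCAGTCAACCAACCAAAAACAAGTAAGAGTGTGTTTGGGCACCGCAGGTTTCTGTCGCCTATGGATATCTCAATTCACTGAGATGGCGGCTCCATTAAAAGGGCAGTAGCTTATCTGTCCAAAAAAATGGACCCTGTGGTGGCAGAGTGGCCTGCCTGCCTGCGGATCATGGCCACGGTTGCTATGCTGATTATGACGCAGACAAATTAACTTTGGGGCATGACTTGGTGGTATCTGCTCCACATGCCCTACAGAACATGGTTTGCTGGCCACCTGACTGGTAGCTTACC

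The peak at C330004P14Rik (chromosome 10, 15791772 to 15792157) had a fold of 4.64 and 7 fragments at its summit, and it lay in the desert with the most desert peaks. The Gm32678 peak (chromosome 8, 29614514 to 29614893; fold 5.16, 7 fragments) lay in the desert with the highest density of them. The highest of the 7 was that at 4930559C10Rik (chromosome 12, 93444909 to 93445292), with a fold of 7.13 and 10 fragments, 550 kb from the nearest coding gene. A single peak at chromosome 15, 46324300 to 46324766 (fold 5.75, 9 fragments), covered the starts of both 1700022A22Rik and Gm41317, which are transcribed in opposite directions. The other peaks were at Gm31307 (fold 6.33, 11 fragments), 9630002D21Rik (5.83, 8 fragments) and Gm36367 (4.06, 6 fragments). What these RNAs do is not described here, and their expression was not measured.

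The 10 windows had a median GC content of 49% (44.3 to 54) and a median of 4 CpG dinucleotides, against 44% and 2 for all 1024 desert windows and 53% and 7 for all 31396 windows on these chromosomes. None of the 10 overlapped H3K4me3, which was found at 9 desert windows (0.879%) and at 39.5% of all windows; for the 10 this follows from how the peaks were chosen. Letters were searched on both strands. TATAAA was in 1 of the 10 (C330004P14Rik), and in 22.8% of desert windows and 13.6% of all windows. CAGCTG, an E-box of the kind bound by MyoD, was in 2 of the 10 (C330004P14Rik and 9630002D21Rik), in 15.5% of desert windows and in 16.3% of all. CCAAT was in 5 of the 10, in 41% of desert windows and in 37.3% of all. A match of letters is not a bound site.

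The desert peaks were narrow and rested on few fragments. Fold is the authors' ratio of the summit to local background, read here as having a constant added to both. Folds of the desert peaks ran from 3.22 to 13.2, with a median of 5.50 and quartiles of 4.71 and 6.49. Their summits held 5 to 30 fragments with a median of 9 (quartiles 7 and 11), and their widths were 330 to 1189 bp with a median of 378 bp. Peaks of CKO alone outside deserts had a median fold of 5.27 (quartiles 4.53 and 6.28), 8 fragments and a width of 373 bp. The median local background was the same in both, at 0.755 fragments. The 2 distributions overlapped along nearly their whole range, and the shift between them was small. A q of 1e-05 or less was reached by 932 desert peaks (39.6%) and by 35.3% of those outside deserts.

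**Figure D1:**
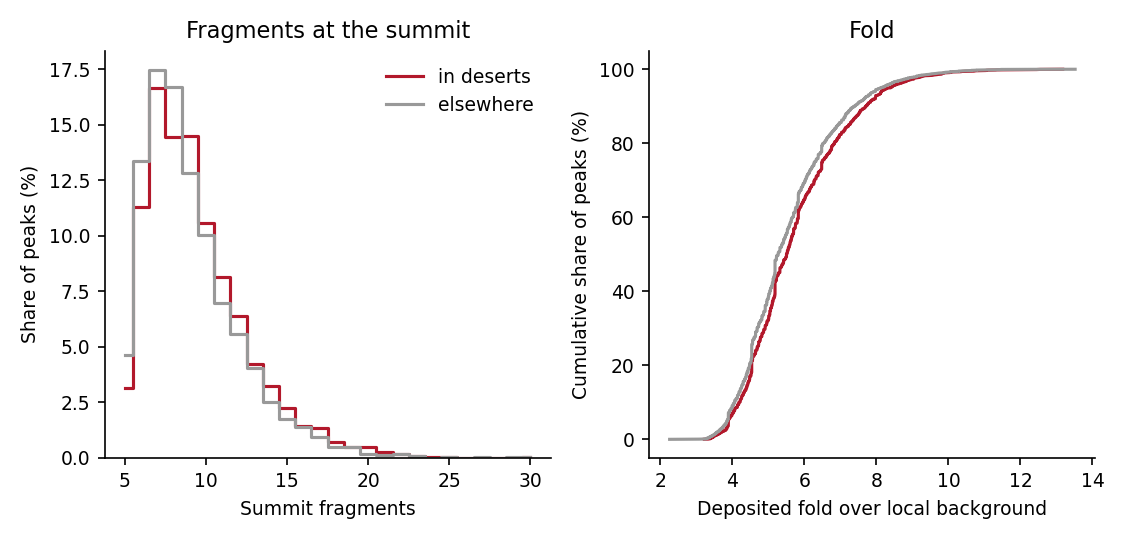
Summit fragments (left, share of peaks in %) and deposited fold (right, cumulative share of peaks in %) of peaks of CKO H3K9me2 alone, in deserts (red, 2352) and elsewhere (grey, 5958). Desert peaks sit slightly to the right, with medians of 9 against 8 fragments and folds of 5.50 against 5.27; the left panel stops at 30 fragments.

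The 15 desert peaks of highest fold lay in 15 different deserts on 12 chromosomes, with folds of 10.4 to 13.2 and 19 to 30 summit fragments. The highest was at chromosome 5, 42323932 to 42324413, with 30 fragments, 480 kb from Bod1l, which encodes a protein that protects stalled replication forks. Its nearest control H3K9me2 peak was 414 kb away and its nearest input peak 135 kb away. A peak of fold 12.5 at chromosome 13, 101039109 to 101039539, lay 206 kb from the zinc transporter gene Slc30a5, inside the lncRNA gene Gm41042 and the pseudogene Hmgb1-ps9. A control H3K9me2 peak was only 9.20 kb from it and an input peak 9.16 kb.

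On chromosome 18, a peak at 29882142 to 29882531 (fold 12.4, 23 fragments) was 383 kb from Pik3c3, the class III phosphatidylinositol 3-kinase gene. On chromosome 15, a peak at 70047770 to 70048186 (fold 12.2, 20 fragments) was 946 kb from Khdrbs3, which encodes an RNA-binding splicing regulator. It was the most remote of the 15. Others were 397 kb from the AMPA receptor gene Gria1 (fold 11.4), 390 kb from Bmp2, which encodes a bone morphogenetic protein (fold 11.05), 571 kb from the catenin gene Ctnna3 (10.7), 319 kb from the contactin gene Cntn6 (10.7) and 596 kb from the corepressor gene Tle4 (10.4). Over the 15, the nearest control H3K9me2 peak lay 9.20 to 992 kb away with a median of 90.2 kb, so some stood close to a control site and others far from any.

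Distance from the nearest coding gene ran from 200 to 2231 kb, with a median of 421 kb and quartiles of 290 and 686 kb. The most remote peak was at chromosome 14, 90702661 to 90703029, in the stretch between the protocadherin genes Pcdh20 and Pcdh9, with a fold of 5.86 and 9 fragments. Of the 10 most remote peaks, 7 were on chromosome 14, in the Pcdh20 to Pcdh9 and Olfm4 to Pcdh17 stretches. The folds of the 10, 4.28 to 7.68, lay well inside the range of all desert peaks. At the 200 kb limit, the 5 peaks just inside (200.03 to 200.6 kb) had folds of 4.74 to 7.51 and 9 to 12 fragments, and the 5 just outside (199.4 to 199.96 kb) had folds of 4.45 to 7.03 and 7 to 12 fragments.

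Deserts made up 19.1% of the sequence of the 19 chromosomes, 458 of 2404 Mb in 731 stretches, and held 28.3% of the peaks of CKO alone (exact 95% binomial interval, Clopper-Pearson, 27.3 to 29.3). That is 5.13 peaks per Mb of desert against 3.06 per Mb elsewhere, a ratio of 1.67. Peaks of Ctrl alone, chosen by the mirrored rule (50.7% of 3595 Ctrl peaks), were spread in the same way: 530 of 1823 (29.1%, 27.0 to 31.2) were in deserts, at 1.16 against 0.665 per Mb, a ratio of 1.74. Peaks of both genotypes had 229 of 663 in deserts (34.5%, 30.9 to 38.3), a ratio of 2.24. Input peaks showed the reverse, with 7.40% of CKO input peaks and 9.64% and 9.24% of the Ctrl input peaks in deserts. H3K4me3 had 77 of 16066 peaks there (0.479%). The rule removed H3K9me2 peaks overlapping H3K4me3, a list with few desert peaks, which raises the desert share of those kept. It also removed those overlapping input. With these kept in, the shares stayed at 28.3% for CKO alone and 29.1% for Ctrl alone, and the CKO density ratio was 1.68. Before any removal, 24.9% of CKO and 26.8% of Ctrl H3K9me2 peaks were in deserts, with density ratios of 1.41 and 1.55.

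Density did not go on rising with distance inside the deserts. Peaks of CKO alone stood at 2.23 per Mb within genes, 3.797 per Mb at 10 to 50 kb, 4.61 at 50 to 100 kb, 5.45 at 100 to 200 kb, 5.48 at 200 to 300 kb and 5.57 at 300 to 500 kb. From 500 to 1000 kb they stood at 4.66 and beyond 1000 kb at 4.54. Peaks of Ctrl alone went from 0.478 per Mb within genes to 1.24 at 200 to 300 kb and 1.10 beyond 1000 kb. CKO input went the other way, from 7.5 per Mb within genes to 1.96 at 200 to 300 kb and 1.66 beyond 1000 kb. The rise in peaks of CKO alone thus lay nearer to genes than the 200 kb limit, which does not mark a step. Removal of peaks overlapping H3K4me3 or input lowers the values in and near genes, by an amount not measured for these distances.

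**Figure D2:**
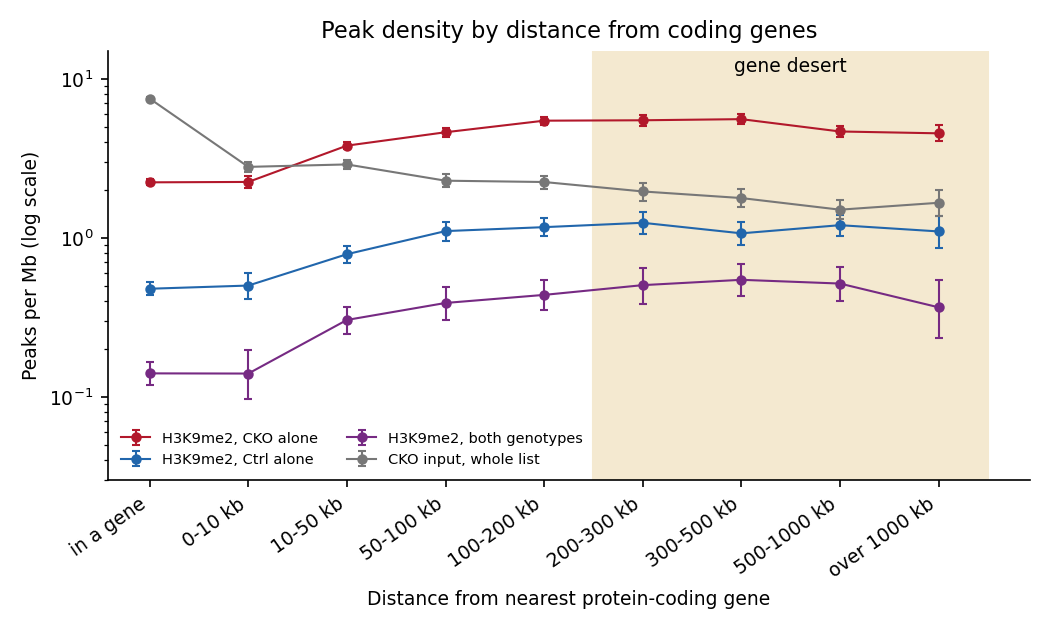
Peaks per Mb (log axis) by distance from the nearest protein-coding gene, for H3K9me2 peaks of CKO alone, Ctrl alone and both genotypes, and for the CKO input list; points are counts over sequence length and bars exact 95% Poisson intervals, covering counting error alone. Peaks of CKO alone reach 5.45 per Mb before the shaded desert bins and stay between 4.54 and 5.57 in them, while input falls from 7.5 to 1.66.

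The number of H3K9me2 peaks by genotype was about as unequal in deserts as elsewhere. Peaks of CKO alone outnumbered those of Ctrl alone 4.44 times in deserts (2352 against 530) and 4.61 times outside (5958 against 1293). By distance the ratio lay between 3.88 (500 to 1000 kb) and 5.22 (300 to 500 kb) with no order. The CKO input list was also longer in deserts, with 791 peaks against 289 and 118 in the Ctrl inputs, which is 2.74 and 6.70 times. Outside deserts these input ratios were larger, at 3.65 and 8.53. The part of depth and of the longer CKO lists in the count of desert peaks was not tested.

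A missing control peak does not show that the mark was missing there. The Ctrl H3K9me2 list began at 4 summit fragments and a −log10 p of 3.93. Scaled by the ratio of background coverage, 0.719, the desert peaks would have a median of 6.47 fragments in Ctrl, and 2104 of 2352 (89.5%) would then reach that −log10 p. Outside deserts 86.3% would. These shares are descriptions from which nothing is read: the fragments are those of peaks chosen for being listed in CKO and not in Ctrl, which favours high CKO values, and the scaled number is taken as exact although a few fragments carry a large counting error. In the 229 desert sites of both genotypes, the CKO summits had a median of 11 fragments, and the 230 matching Ctrl summits a median of 7.

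Desert peaks occurred on each of the 19 chromosomes, with 46 on chromosome 19 to 210 on chromosome 3. Per Mb of desert they ranged from 4.02 on chromosome 2 to 6.72 on chromosome 10, around a median of 5.15. On all 19 the desert density was above that outside deserts, the closest being chromosome 1 (4.53 against 3.59) and chromosome 3 (5.06 against 4.05). The ratio was largest on chromosome 11, with 5.02 against 1.98. Median folds by chromosome lay between 5.20 and 5.83.

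Most deserts held a desert peak. Of 731 stretches, 536 had at least 1, and the 195 without were short (median 85.6 kb against 514 kb, the longest 778 kb). All 141 deserts of 1 Mb or more had 1 or more, at 0.662 to 11.6 per Mb with a median of 4.52. Across the 731 deserts the number of peaks followed length (Pearson r = 0.856, Spearman rho = 0.841), a description of stretches that share 1 library. Across the 141 long deserts, the density of desert peaks went only weakly with that of all Ctrl H3K9me2 peaks (rho = 0.161) and of CKO input peaks (rho = -0.091), which at these sparse counts is no finding.

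**Figure D3:**
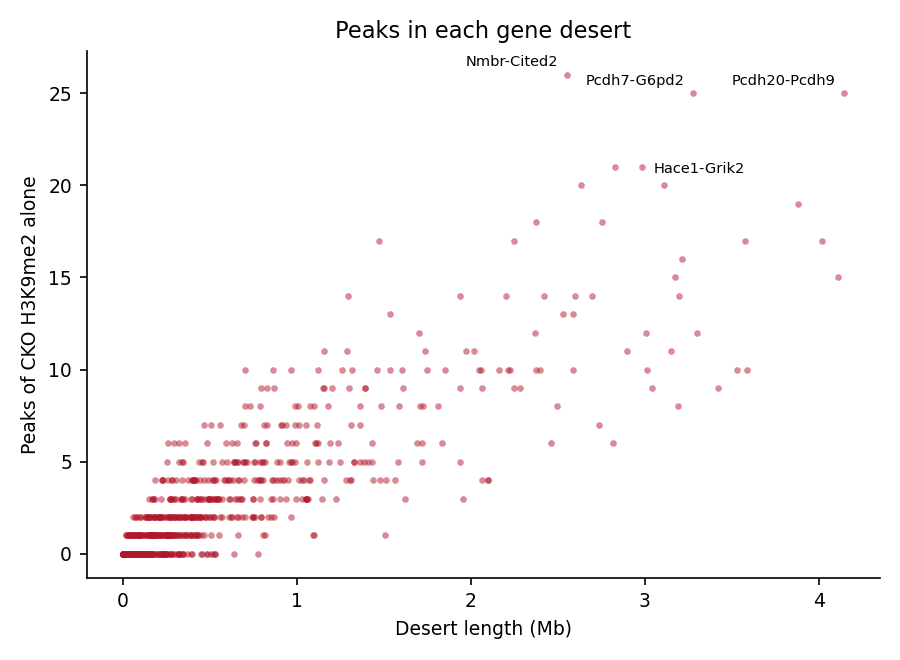
Number of desert peaks (vertical axis) against length in Mb (horizontal axis) for each of the 731 deserts, with 4 deserts labelled by their flanking genes. Counts follow length, and the Nmbr to Cited2 desert leads with 26.

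The richest desert lay on chromosome 10 between Nmbr, the neuromedin B receptor gene, and Cited2, which encodes a transcriptional coregulator (14971458 to 17523228, 2.55 Mb). It held 26 desert peaks with a median fold of 4.67 (3.81 to 7.75), below that of all desert peaks. In the same stretch there were 4 peaks of Ctrl H3K9me2, 1 of CKO input, 2 of Ctrl input 1 and none of Ctrl input 2 or H3K4me3. This desert thus combined many peaks of low fold with 1 CKO input peak, which was not particular to it. The other deserts of highest density, named below, had median folds of 4.76 to 5.18 and 0 to 2 CKO input peaks. In Nmbr to Cited2, the 1.57 Ctrl H3K9me2 peaks per Mb lay below the 2.10 per Mb of all deserts. They lay above the 1.22 of Pcdh7 to G6pd2 and the 1.34 of Hace1 to Grik2, deserts described next.

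Between the protocadherin gene Pcdh7 and G6pd2, an autosomal copy of a glucose-6-phosphate dehydrogenase gene (chromosome 5, 58333236 to 61608843), there were 25, with a median fold of 5.70. That stretch held 4 Ctrl H3K9me2 and 7 CKO input peaks. The 4.14 Mb between Pcdh20 and Pcdh9 (chromosome 14, 88671396 to 92813700) also held 25, with a median fold of 5.75 and a highest of 9.86, beside 8 Ctrl H3K9me2 and 4 CKO input peaks. Between the ubiquitin ligase gene Hace1 and the kainate receptor gene Grik2 (chromosome 10, 45912345 to 48893680) there were 21, beside 4 Ctrl H3K9me2 and 5 CKO input peaks.

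**Figure D4:**
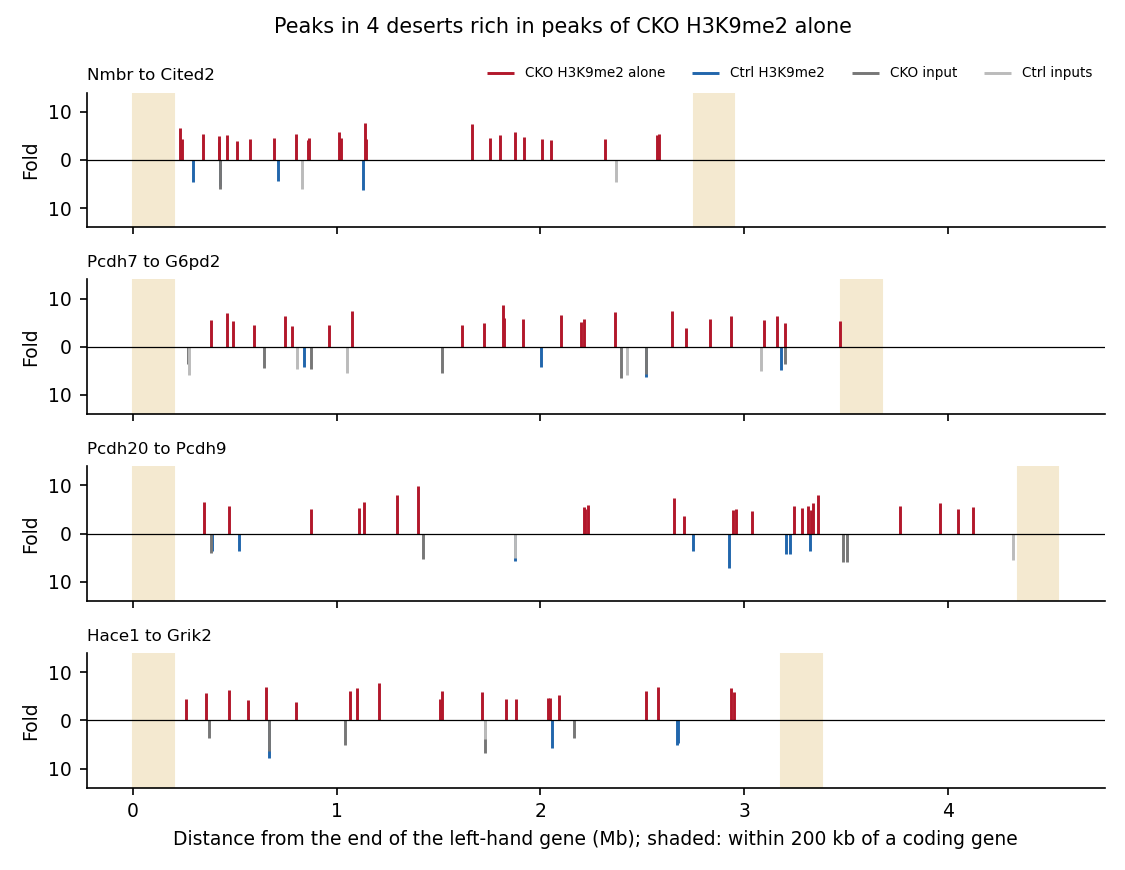
Positions of peaks in 4 of the richest deserts, in Mb from the end of the left-hand gene; desert peaks are drawn upward and Ctrl H3K9me2 and input peaks downward, with height the deposited fold, and overlapping downward bars hide each other. The desert peaks are scattered over each stretch, and the Nmbr to Cited2 desert has 26 of them and 4 Ctrl H3K9me2 peaks.

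By density, deserts of 1 Mb or more were led by the stretch between Unc5d, a netrin receptor gene, and the phosphatase gene Dusp26 (chromosome 8, 29419671 to 30889527), with 17 desert peaks at 11.6 per Mb. It held 4 Ctrl H3K9me2 peaks and 1 CKO input peak. The next were Gm36448 to Dad1 on chromosome 14 (14 peaks, 10.8 per Mb), Nmbr to Cited2 (10.2), Nectin3 to Gm52257 on chromosome 16 (11 peaks, 9.49 per Mb) and Fat4 to Intu on chromosome 3 (10 peaks, 8.93 per Mb). Nectin3 encodes an adhesion protein and Fat4 an atypical cadherin. With 10 to 26 peaks each, these densities are small counts, and the deserts were ranked by them.

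Among the deserts were antigen receptor loci, which count as deserts only because RefSeq lists their V, D, J and C segments apart from protein-coding genes. The stretch between Gm36448 and Dad1 (52741356 to 54035485), in the T cell receptor alpha locus, had 14 desert peaks, and the immunoglobulin heavy chain stretch between Adam6a and Zfp386 on chromosome 12 had 4. Only 5 peaks overlapped a segment itself, among them Trav14d-3-dv8 (fold 7.02), Trav9n-2 (6.02) and Ighv1-23 (4.47). V segments resemble each other, so the copy a read came from can be uncertain.

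Most desert peaks lay more than 10 kb from the next peak, and the spacing expected from their density alone was not computed. The median distance to the next H3K9me2 peak of the CKO list was 51.3 kb (quartiles 23.4 and 103), and 12 of 2352 (0.510%, 0.264 to 0.890) had a peak within 1 kb. Within 10 kb 9.74% had a peak (8.57 to 11.01) and within 50 kb 49.1%. Peaks of CKO alone outside deserts gave nearly the same values, a median of 50.3 kb and 10.3% within 10 kb. The nearest Ctrl H3K9me2 peak was a median of 157 kb away and 3.02% of desert peaks had one within 10 kb. The lists thus show scattered narrow summits in deserts and no long runs of adjoining peaks. Input lists had similar median widths, 363 to 398 bp, so nothing about the extent of the mark is read from this.

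Nearest coding genes were grouped by lists of unequal length. A desert peak's nearest coding gene was a cadherin or protocadherin for 142 of 2352 peaks (6.04%, 5.11 to 7.08). The share was 0.906% of peaks outside deserts and 2.15% of all CKO H3K9me2 peaks. By the rule, genes nearest to desert peaks border a desert, so the shares of all lists depend on which listed genes do. Of 21 autosomal genes in that list 18 border a desert, where 6.22% of all 20665 coding genes do. Pcdh9 was nearest to 17 peaks with folds of 3.75 to 7.97, and Cdh2, the N-cadherin gene, to 15 with folds of 3.89 to 9.03. Pcdh17 and Pcdh7 were each nearest to 15.

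Synaptic and axonal adhesion genes were nearest to 112 desert peaks (4.76%, 3.94 to 5.70; 3.004% outside), led by Csmd3 (12), Cntnap5b (11) and Flrt2 (10). Developmental transcription factors were nearest to 97 (4.12%, 3.36 to 5.01; 1.93% outside), led by Zeb2 with 10 peaks at a median fold of 6.70 and Nr2f1 with 8 at 5.64. Axon guidance genes, led by Epha7 and Unc5d with 9 each, had 49 (2.08% against 1.23% outside). Neurotransmitter receptors and channels, led by Grik2 with 12, had 48, and their share was almost the same as outside deserts (2.04% against 2.01%). Median folds of these 5 lists were 5.18 to 5.70, close to 5.50 for all desert peaks.

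Sarcomere and myogenic genes were nearest to 4 desert peaks (0.170%, 0.0464 to 0.435), close to their share outside deserts (0.218%) and among all CKO H3K9me2 peaks (0.216%). These were 3 near Mef2c, a myogenic transcription factor gene, at 521 to 764 kb, and 1 near the sarcoglycan gene Sgcd, 333 kb away with a fold of 5.67. Of the 39 such genes, 3 border a desert. Numbered zinc finger (Zfp) genes had 12 peaks (0.510%), against 0.789% outside deserts and 1.15% among all CKO H3K9me2 peaks. Olfactory, vomeronasal and taste receptor genes, whose clusters are dense, had 0 of 2352, which allows a share of up to 0.157%. Their share was 4.70% outside deserts and 3.06% among all CKO H3K9me2 peaks.

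**Figure D5:**
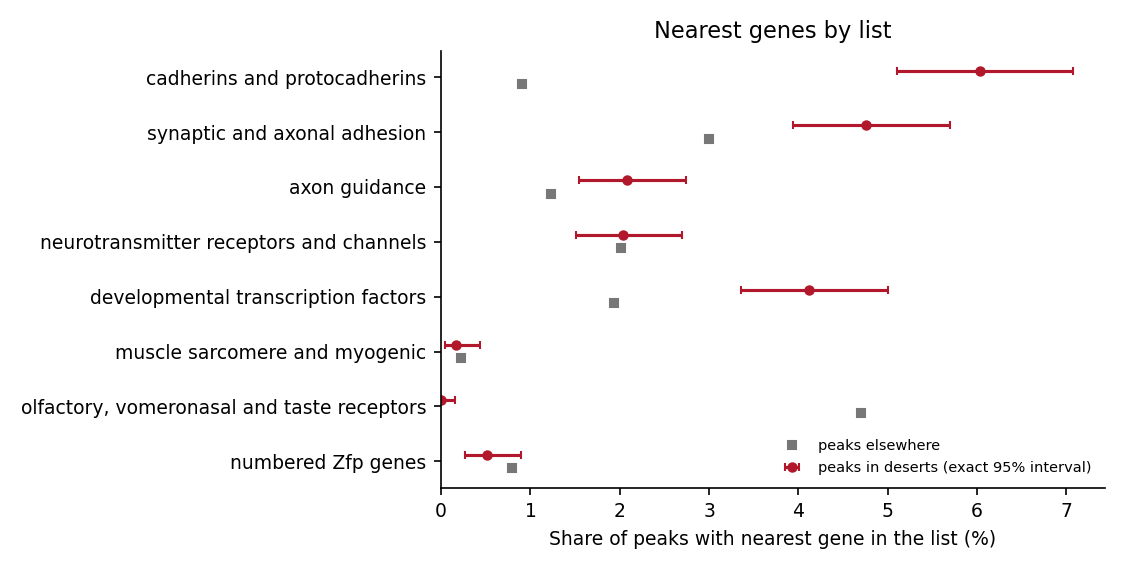
Share of peaks of CKO H3K9me2 alone (horizontal axis, %) whose nearest coding gene belongs to each list, for desert peaks (red, bars exact 95% binomial intervals) and for peaks elsewhere (grey squares). Cadherins and protocadherins reach 6.04% in deserts and 0.906% elsewhere, and receptor gene clusters 0% and 4.70%.

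The nearest genes carried the active promoter mark at about the share of all coding genes. Of 790 coding genes nearest to a desert peak, 489 (61.9%, 58.4 to 65.3) had H3K4me3 in Ctrl within 2 kb of either end, as did 63.8% of genes bordering a desert and 61.0% of all coding genes. For peaks of CKO alone outside deserts the share was 46.7% of 3187 nearest genes (44.9 to 48.4). The rule removed peaks overlapping H3K4me3, which can lower that share for peaks close to genes, so nothing is read from the difference. Pcdh9, Cdh2, Pcdh17, Pcdh7, Zeb2 and Nr2f1 had such a peak, and Grik2, Csmd3, Cntnap5b and Mef2c had none. H3K4me3 was mapped in Ctrl alone, and without strand or exons the marked end need not be the start of the gene. No H3K4me3 peak lay within 1 kb of a desert peak, and the median distance to the nearest was 533 kb. The choice of peaks without H3K4me3 and 200 kb or more from coding genes favours both values, so they are no finding.

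Non-coding genes took up 11.6% of desert sequence and held 302 desert peak summits (12.8%, 11.5 to 14.3). Long non-coding RNA genes, with 9.40% of the sequence, held 196 (8.33%, 7.25 to 9.52), or 4.55 per Mb against 5.19 elsewhere in deserts. Pseudogenes, with 0.791% of the sequence, held 70 (2.98%, 2.33 to 3.75). That is 19.3 per Mb against 5.02 in the rest of the deserts, a ratio of 3.85. The same ratio was 2.66 for peaks of Ctrl alone (11 summits) and 3.09 for CKO input peaks (19 summits), so peaks were denser in pseudogenes in those lists too. By overlap, 3.15% of desert peaks touched a pseudogene (2.48 to 3.93), and 4.31% of peaks of CKO alone outside deserts did (3.81 to 4.86).

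Of the 15 highest desert peaks 3 lay in pseudogenes: Hmgb1-ps9, Gm15387 (chromosome 15, 74094171 to 74094570, fold 11.3) and Gm7159 (chromosome 19, 15193764 to 15194206, fold 10.4). Pseudogenes resemble the genes they were copied from, and the treatment of reads with several matches is not stated in the labels. The highest peaks in lncRNA genes, after Gm41042, were in Gm19782 (fold 12.2), 4930528P14Rik (10.1) and Gm34196 (chromosome 13, 84811373 to 84811728, fold 9.85). Of 44 miRNA hairpins in deserts none was overlapped by a desert peak, and 2 had one within 10 kb.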

How the data were processed

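Peak lists of 6 CUT&RUN libraries, 1 list each, were used, with groups from the sample titles. The submitters' processing notes name Bowtie2, MACS2 and mm10; their versions, the settings and any control library used in calling are not given there. The authors deposited, for each peak, its fold (a ratio of summit to local background), p and q as −log10 values, a score and the summit's offset.

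Overlap meant 1 bp or more. Fold was taken as the summit fragments plus 1 over the local background plus 1. Summit fragments and local background were solved from fold and p-value, which gave back −log10 p to within 0.1% in 99.0% (Ctrl input 2) to 99.97% of each list's peaks. The lowest background of a list was taken as its coverage. Genes came from RefSeq GRCm38.p6 (20665 protein-coding on chromosomes 1 to 19). Desert length was counted from position 3000000, with assembly gaps included. Intervals are exact 95% binomial (Clopper-Pearson) and cover counting error alone; peaks are not replicates. Overlap, distance, desert membership and fragment recovery were tested on simulated data.

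The members and the 8 gene lists were chosen with earlier results of these data known. Regions named are the 15 highest by fold, 10 most remote, richest 5 and densest 5 deserts, the peaks beside the limit, the closest pairs, the highest in non-coding genes, and up to 4 genes per list; pseudogene and antigen receptor values were added after values were seen. Some results under this rule are not reported here. Software was scipy 1.17.1, numpy 2.4.6, matplotlib 3.10.9 and pandas 2.3.3 under Python 3.11.15.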

Additional observations from a re-analysis of the deposited data

How the results depend on the processing

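Each of 8 results was recomputed under 10 other settings and 3 more chosen after seeing the data (antigen receptor stretches left out, removal by both Ctrl inputs alone, and the CKO list shortened by q to the length of the Ctrl list). Removing peaks within 1 kb of another list, keeping input peaks in, dropping 1 Ctrl input (2369 to 2400 desert peaks), merging, leaving out antigen receptor stretches and using the Ctrl inputs alone kept all 8 within their limits. At 100 kb the share of peaks of CKO alone was 41.3%, of Ctrl alone 41.8% and the density ratio 1.87. At 500 kb there were 931 desert peaks, with shares of 11.2% and 12.9%, a ratio of 1.38 and H3K4me3 at the nearest gene for 60.4%. At q of 1e-05 or less there were 932, with shares of 30.7% and 33.7%, a ratio of 1.88, median folds of 6.84 in deserts and 6.72 outside, and 100% reaching the Ctrl limit. With folds at or above the list median there were 1229, with shares of 30.6% and 32.5%, a ratio of 1.87, median folds of 6.48 and 6.38, and 100% reaching that limit. With the shortened CKO list there were 702, with a share of 31.7%, a ratio of 1.97, median folds of 7.25 and 7.13, H3K4me3 at the nearest gene for 59.4% and 100% reaching that limit. The values of 100% follow from keeping only peaks of high q or fold in CKO, so nothing is read from them. At 200 kb from all RefSeq genes there were 270, with shares of 3.25% and 4.00%, a ratio of 1.37, a median fold of 5.60 and 7.04% with H3K4me3 at the nearest gene of any class; little sequence is that far from all genes. The density ratio was above 1 under each of the 13 settings, all of which removed peaks overlapping H3K4me3. No paired analysis was possible because only the Ctrl inputs carry replicate numbers. Summits in the CKO and Ctrl H3K9me2 lists held medians of 9 and 6 fragments, so each peak rests on few fragments.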

Other observations

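The closest pairs of desert peaks were separated by 338 to 897 bp. The closest, on chromosome 13 at 11017686 to 11018036 (fold 6.72, 11 fragments) and 11018375 to 11018711 (fold 5.70, 9 fragments), lay 535 kb from Ryr2, the cardiac ryanodine receptor gene. Pairs followed near Slc10a2, the ileal bile acid transporter gene (chromosome 8, 5639467 to 5639971 and 5640322 to 5640908, folds 5.35 and 4.22), Rdh14 (folds 6.49 and 4.36), Pcdh10 (4.52 and 8.55) and Arpp21 (5.10 and 6.17).

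Among deserts of 1 Mb or more the sparsest, named after its values were seen, lay between Plod2, a collagen lysyl hydroxylase gene, and Dipk2a (chromosome 9, 92808428 to 94317864). Its 1.51 Mb held 1 desert peak and 1 Ctrl H3K9me2 peak beside 7 CKO input peaks, 2 of Ctrl input 1 and 1 of Ctrl input 2.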
